A study of Homo sapiens with 4 samples.

Results

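The genes described here are 53 DNA repair and damage checkpoint genes, picked by name from the 38137 genes deposited and grouped by their role in repair. Earlier results of these data were known when the genes were chosen. All 53 were among the 19393 genes that averaged 20 or more reads per library, the level needed to enter a comparison, and their counts lay between 121 and 8115 reads in a library. The groups were 15 genes of homologous recombination, 5 of end joining, 7 of the Fanconi anemia pathway, 2 of mismatch repair, 8 of base excision and single-strand break repair, 4 of nucleotide excision repair, 3 of translesion synthesis and 9 of damage signalling and checkpoint.

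RNA was sequenced from flank tumors of A549, a human non-small cell lung cancer line, grown in 6-week-old male BALB/c athymic nude mice, which lack T cells. The 4 groups were the combination (aerobic exercise with radiation), radiation alone, exercise alone and control, with 5 mice and 1 library in each. Irradiated tumors received 2 Gy of X-rays per session, and exercised mice ran on a treadmill at 8.0 m/min for 30 min per session, before irradiation in the combination, with 3 sessions a week for 2 weeks. The sources used here do not give whether 1 tumor or several went into a library. Because each group had 1 library, the ratio of 2 libraries carries no replicate check, and its 95% interval (exact Clopper-Pearson) covers counting error only.

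DNA breaks are read by the kinases ATM, ATR and DNA-PKcs, which mark chromatin and hold the cell cycle. Double-strand breaks are then rejoined by end joining at any stage of the cell cycle, or copied from the sister chromatid by homologous recombination in S and G2 phase, when the genes of that pathway are also most highly expressed. The p53 protein, which is wild type in A549, activates genes that stop the cycle and also a few repair genes, among them DDB2, XPC and POLH.

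The 4 libraries held 33432637 to 35408705 counts, and levels are given as CPM, the counts of a gene scaled to library size by TMM. Expression of 12 epithelial genes of A549 summed to 15500 to 16800 CPM in every library, with no epithelial gene at 0 reads. A list of 8 alveolar genes summed to 12.9 to 15.4 CPM in a library, with 3 to 5 of them at or below 3 reads. Of the 8, SFTPA2 was at 0 reads in 3 libraries and NKX2-1 in 2. Several marker lists moved with radiation. A list of 22 proliferation genes summed to 508 CPM in the combination and 483 CPM with radiation alone, against 978 CPM with exercise alone and 679 CPM in control. A list of 12 genes induced by p53 summed to 1440 CPM in the combination and 1280 CPM with radiation alone, against 475 CPM with exercise alone and 431 CPM in control. Among the host cell lists, 8 skeletal muscle genes summed to 46.7 CPM in the combination and 37.4 CPM with radiation alone, against 5.96 CPM with exercise alone and 4.7 CPM in control, where MYH1, MYH2, MYH7 and TNNT3 were at 0 reads. The sums of 8 fibroblast genes (189 and 217 CPM, against 339 and 333 CPM), 8 macrophage genes (491 and 427 CPM, against 357 and 369 CPM) and 7 endothelial genes (8.24 and 12 CPM, against 17.1 and 21.7 CPM) are in the same order of groups. The part of these shifts in the results was not tested. In bulk tumor RNA, fewer cells of a type and less RNA per cell cannot be told apart. Reads were aligned to the human genome, so whether counts in the host lists came from mouse or A549 cells is not known.

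Most repair genes that differed with radiation were lower in irradiated tumors. Both irradiated libraries lay below both unirradiated libraries for 27 of the 53 genes (50.9%, against 27.6% of all genes tested), among them 12 of 15 homologous recombination genes and 6 of 7 Fanconi genes. For 6 genes (11.3%, against 26.2% of all genes) both irradiated libraries lay above. In an additive fit of the 4 libraries (edgeR quasi-likelihood, radiation and exercise as terms), 15 of the 53 genes passed an adjusted p of 0.05 for radiation, where 9.3% of all genes tested did. Of these 15, 12 were lower (22.6% of the genes, against 3.75% of all genes) and 3 were higher (5.66%, a share level with the 5.55% of all genes). With DESeq2 in place of edgeR 7 were lower, with BARD1, CHEK1, EXO1, FANCA and FANCI no longer called, and with total-count scaling 19 were lower. Over all genes DESeq2 called 4.94% and total-count scaling 12.8% in either direction. Total-count scaling moved all genes downward: 43.0% of its calls were higher, against 59.7% in the main fit. With it the median of all genes was -0.07 for radiation alone over control. The fit sets the 2 irradiated against the 2 unirradiated libraries, and its 1 residual degree of freedom holds both the spread between tumors and any departure from additive effects, so its p-values do not rest on replicates. Just inside the threshold were FANCI, FANCA and BARD1 (adjusted p = 0.0234, 0.0253 and 0.0258 in edgeR), and just outside were BRCA2 and XRCC3 (adjusted p = 0.0593 and 0.0627 in edgeR).

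**Figure D1:**
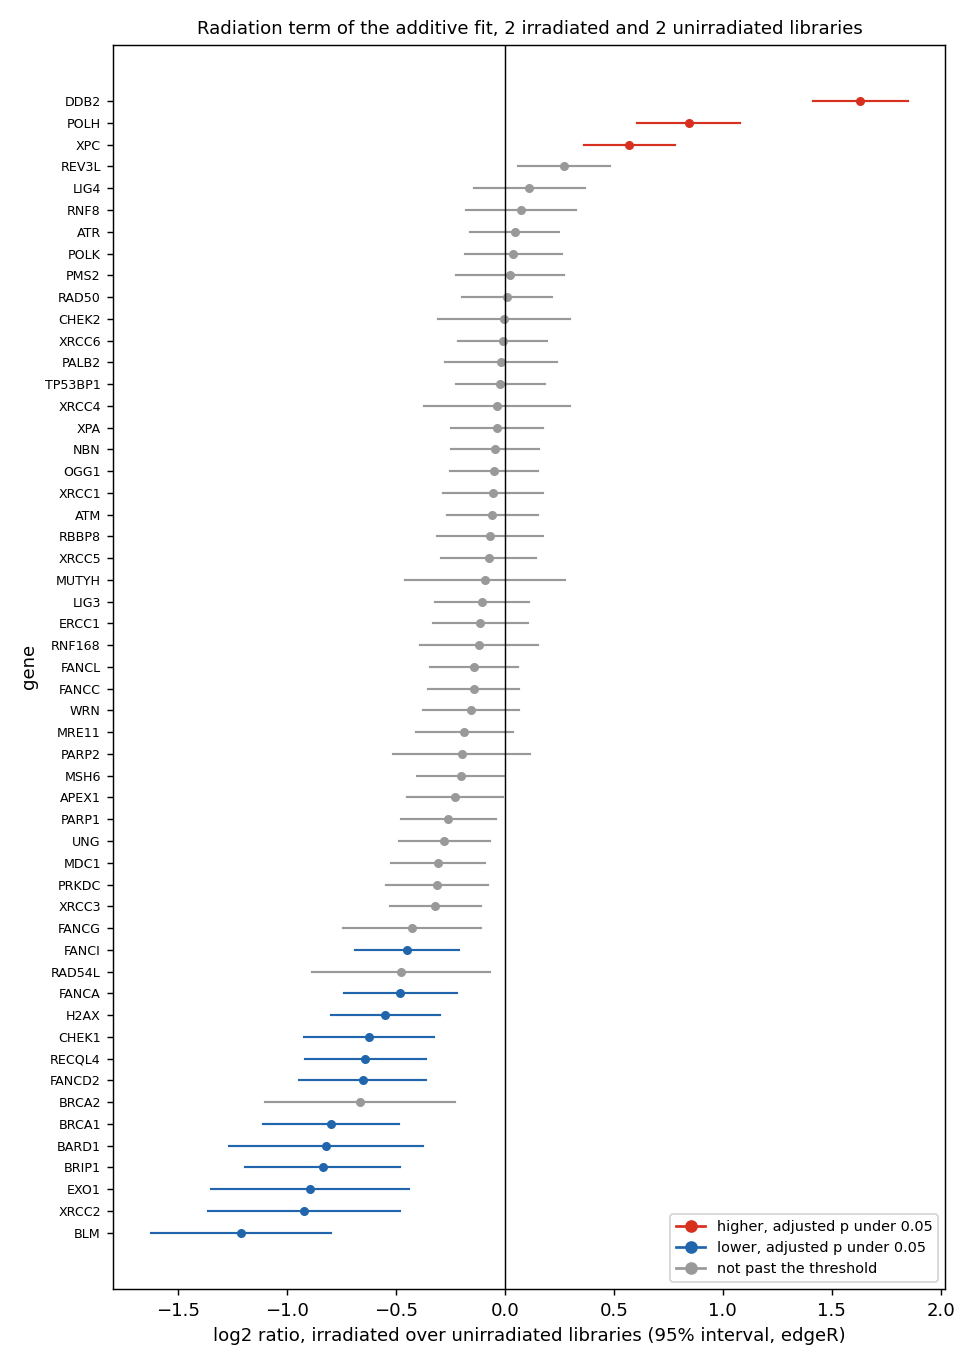
Log2 ratio of irradiated over unirradiated libraries in the additive edgeR fit for the 53 genes (x axis), sorted by the ratio down the page, with lines giving the 95% interval of the fit, red and blue marking genes past an adjusted p of 0.05 and grey the rest. The 12 genes that were lower belong to homologous recombination, the Fanconi pathway and damage signalling, and DDB2, POLH and XPC stand at the top, to the right of 0.

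To show the letters before genes on either side of 0, the promoters of BLM, XRCC2 and DDB2 are shown, 2 genes that were lower and the gene that was highest. Each is the 250 bases before a transcription start, read 5′ to 3′ on the gene's strand from RefSeq (GRCh38.p14), at chr15:90717096-90717345 (+) for BLM, chr7:152676142-152676391 (-) for XRCC2 and chr11:47214204-47214453 (+) for DDB2. Capitals mark matches, on either strand, to the E2F core (spelled GGCGGGA, with GGCGCGA also taken, and TTTGGCG as a further form), bound by the factors that drive S phase genes, and to CCAAT, bound by NF-Y.
BLM: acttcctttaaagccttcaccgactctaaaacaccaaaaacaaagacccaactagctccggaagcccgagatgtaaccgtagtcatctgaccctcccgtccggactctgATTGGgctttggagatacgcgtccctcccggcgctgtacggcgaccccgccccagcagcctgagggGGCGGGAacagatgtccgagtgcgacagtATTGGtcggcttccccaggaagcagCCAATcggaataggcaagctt
XRCC2: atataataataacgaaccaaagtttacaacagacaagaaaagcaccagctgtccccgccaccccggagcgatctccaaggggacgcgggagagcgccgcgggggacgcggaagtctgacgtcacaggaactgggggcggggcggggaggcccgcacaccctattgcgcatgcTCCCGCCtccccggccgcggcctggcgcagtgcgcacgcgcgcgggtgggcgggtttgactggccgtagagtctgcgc
DDB2: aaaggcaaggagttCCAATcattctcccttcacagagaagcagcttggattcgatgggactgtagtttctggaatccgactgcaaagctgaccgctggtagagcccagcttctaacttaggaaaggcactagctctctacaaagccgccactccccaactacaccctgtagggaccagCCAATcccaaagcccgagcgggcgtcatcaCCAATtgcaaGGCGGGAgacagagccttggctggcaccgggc
The E2F core began 75 bases before the start in BLM, 78 bases before it in XRCC2 and 32 bases before it in DDB2, so the same letters stood in front of genes that moved in opposite directions. CCAAT occurred 3 times in BLM and 3 times in DDB2, on either strand. Promoter windows were matched for 47 of the 53 genes, with 70 windows in all. The E2F core was in 41.4% of these windows, against 17.9% of all 35116 windows of the same length. Among the genes called in the radiation fit it was in 28.6% of 14 windows of lower genes (BARD1, BLM, EXO1 and XRCC2), in all 4 windows of higher genes (DDB2, POLH and XPC) and in 40.4% of 52 windows of genes not called. CCAAT was in 47.1% of the windows against 32.0% of all windows, with 57.1% of windows of lower genes, 25.0% of windows of higher genes and 46.2% of windows of genes not called. The cell cycle element TTTGAA was in 12.9% against 13.3%. The windows came from 10 lower genes, 3 higher genes and 34 genes not called, so some genes count more than once. A match is a description of letters and not a bound site.

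Homologous recombination held 6 of the 12 genes that were lower in irradiated tumors, BLM, XRCC2, EXO1, BARD1, BRCA1 and RECQL4, and its median log2 ratio in the fit was -0.47, against -0.01 over all genes.

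BLM (chr15:90717346-90816166, GRCh38), the helicase that dissolves crossed DNA strands late in recombination, had 5.53 CPM in the combination, 6.15 CPM with radiation alone, 16.3 CPM with exercise alone and 11.1 CPM in control. Both irradiated libraries were below control, and exercise alone was the highest of the 4. The fit gave a log2 ratio of -1.21 ± 0.19 (SE, adjusted p = 0.00184, edgeR), the lowest of the 53 genes. Pair by pair, BLM was 0.553-fold with radiation alone over control (0.465 to 0.654), 0.497-fold in the combination over control (0.414 to 0.593) and 0.340-fold in the combination over exercise alone (0.285 to 0.402).

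XRCC2, a paralog of the recombinase that helps load it on single-stranded DNA, had 5.62 CPM in the combination, 5.89 CPM with radiation alone, 14 CPM with exercise alone and 8.46 CPM in control. Its log2 ratio for radiation was -0.92 ± 0.20 (SE, adjusted p = 0.0135, edgeR). The exercise library stood apart here: XRCC2 was 1.65-fold with exercise alone over control (1.43 to 1.91), the largest exercise ratio of the 53 genes.

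EXO1, the nuclease that resects broken ends, had 3.69 CPM in the combination, 4.69 CPM with radiation alone, 8.71 CPM with exercise alone and 6.92 CPM in control, with a log2 ratio for radiation of -0.89 ± 0.21 (SE, adjusted p = 0.0184, edgeR). BRCA1, the ubiquitin ligase subunit that licenses resection and recombination, had 16.1 CPM in the combination, 16.3 CPM with radiation alone, 34.3 CPM with exercise alone and 23.0 CPM in control, with -0.80 ± 0.14 (SE, adjusted p = 0.00418, edgeR). Its binding partner BARD1 had 3.97 CPM in the combination, 3.94 CPM with radiation alone, 8.42 CPM with exercise alone and 5.77 CPM in control, with -0.82 ± 0.20 (SE, adjusted p = 0.0258, edgeR). In both partners the irradiated libraries differed little from each other and exercise alone was highest. In RefSeq, 36.0% of the BRCA1 span (chr17:43044295-43170327) is shared with other genes, NBR2 and the pseudogene BRCA1P1 among them. The length behind the deposited BRCA1 FPKM was 64.3% of that span, so the counts may not cover the shared part.

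RECQL4, a helicase of replication and repair, had 15.0 CPM in the combination, 14.2 CPM with radiation alone, 25.5 CPM with exercise alone and 20.2 CPM in control, with a log2 ratio for radiation of -0.64 ± 0.13 (SE, adjusted p = 0.00773, edgeR). BRCA2, which loads the recombinase, had 4.70 CPM in the combination, 5.55 CPM with radiation alone, 9.32 CPM with exercise alone and 7.06 CPM in control. In BRCA2 both irradiated libraries were below both unirradiated ones, but the ratio missed the threshold (-0.67, 95% interval -1.10 to -0.23, adjusted p = 0.0593, edgeR). RAD54L, a motor protein of strand exchange, had 5.22 CPM in the combination, 5.26 CPM with radiation alone, 8.25 CPM with exercise alone and 6.41 CPM in control (-0.47, 95% interval -0.88 to -0.07, adjusted p = 0.148, edgeR). The remaining 7 genes of the group, PALB2, XRCC3, MRE11, RAD50, NBN, RBBP8 and WRN, were within 1.5-fold in every pair, with RAD50 highest in the fit at 0.01 (95% interval -0.20 to 0.22). RAD50, which holds broken ends together, had 111 CPM in the combination, 120 CPM with radiation alone, 112 CPM with exercise alone and 117 CPM in control, so its irradiated and unirradiated libraries overlapped.

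All 7 Fanconi genes had a log2 ratio below 0 for radiation, and 4 passed. The pathway removes cross-links between DNA strands. BRIP1, a helicase that partners BRCA1, had 8.73 CPM in the combination, 10.8 CPM with radiation alone, 19.1 CPM with exercise alone and 15.8 CPM in control (-0.83 ± 0.16, SE, adjusted p = 0.0069, edgeR), the lowest of the group. FANCD2, which is ubiquitinated to start the repair, had 12.3 CPM in the combination, 12.4 CPM with radiation alone, 20.9 CPM with exercise alone and 18.0 CPM in control (-0.65 ± 0.13, SE, adjusted p = 0.00915, edgeR). Its partner FANCI had 44.2 CPM in the combination, 43.2 CPM with radiation alone, 68.7 CPM with exercise alone and 51.5 CPM in control (-0.45 ± 0.11, SE, adjusted p = 0.0234, edgeR). In this pair of partners both irradiated libraries were again level with each other and below both unirradiated libraries. Other genes, FANCD2OS among them, share 28.4% of the FANCD2 span.

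Of the core complex that ubiquitinates these partners, FANCA passed the threshold and FANCG, FANCL and FANCC did not, though all were below 0. FANCA, a scaffold subunit, had 25.2 CPM in the combination, 27.4 CPM with radiation alone, 40.5 CPM with exercise alone and 33.1 CPM in control (-0.48 ± 0.12, SE, adjusted p = 0.0253, edgeR). FANCG had 12.2 CPM in the combination, 11.5 CPM with radiation alone, 18.5 CPM with exercise alone and 13.6 CPM in control, and missed the threshold (-0.43, 95% interval -0.74 to -0.11, adjusted p = 0.0948, edgeR). FANCL, the ligase subunit, and FANCC were within 1.5-fold in every pair, and FANCL was the highest of the group in the fit at -0.14.

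The 3 genes higher after radiation came from nucleotide excision repair, which removes bulky lesions, and from translesion synthesis, which copies past them. In the wider pathway list described below, 0 of 17 other nucleotide excision repair genes and 0 of 8 other translesion synthesis genes were called. DDB2 (chr11:47214454-47239217), which recognizes ultraviolet lesions in chromatin, had 120 CPM in the combination, 107 CPM with radiation alone, 41.3 CPM with exercise alone and 32.2 CPM in control. Both irradiated libraries were far above both unirradiated ones, which differed less among themselves. The fit gave 1.63 ± 0.10 (SE, adjusted p = 1.5e-06, edgeR). DDB2 was 3.32-fold with radiation alone over control (3.11 to 3.55) and 3.71-fold in the combination over control (3.48 to 3.97), and it was the only gene of the 53 past 2-fold higher in either comparison.

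XPC, the damage sensor that DDB2 hands lesions to, had 144 CPM in the combination, 135 CPM with radiation alone, 92.9 CPM with exercise alone and 94.3 CPM in control (0.57 ± 0.10, SE, adjusted p = 0.00271, edgeR). XPC was 1.43-fold with radiation alone over control (1.37 to 1.49) and 1.52-fold in the combination over control (1.46 to 1.59). The antisense gene XPC-AS1 shares 11.6% of its span. POLH, the polymerase that copies past ultraviolet lesions, had 35.4 CPM in the combination, 34.6 CPM with radiation alone, 18.9 CPM with exercise alone and 20.1 CPM in control (0.84 ± 0.11, SE, adjusted p = 0.000551, edgeR). For both genes the irradiated libraries lay together and above the unirradiated ones.

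The other members of these groups did not pass. XPA and ERCC1 of nucleotide excision repair had log2 ratios of -0.04 (95% interval -0.24 to 0.17) and -0.11 (-0.33 to 0.11). In translesion synthesis, REV3L, the catalytic subunit of polymerase zeta, had 41.5 CPM in the combination, 46.1 CPM with radiation alone, 33.7 CPM with exercise alone and 38.8 CPM in control. Its irradiated libraries were both above the unirradiated ones, but the ratio of 0.27 missed the threshold (adjusted p = 0.111, edgeR). POLK was lowest of the 3, at 0.04. CDKN1A, the p53-induced inhibitor that holds cells in G1, had 408 CPM in the combination and 327 CPM with radiation alone, against 79.6 CPM with exercise alone and 60.6 CPM in control (2.39 ± 0.11, SE, adjusted p = 1.36e-07, edgeR).

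**Figure D2:**
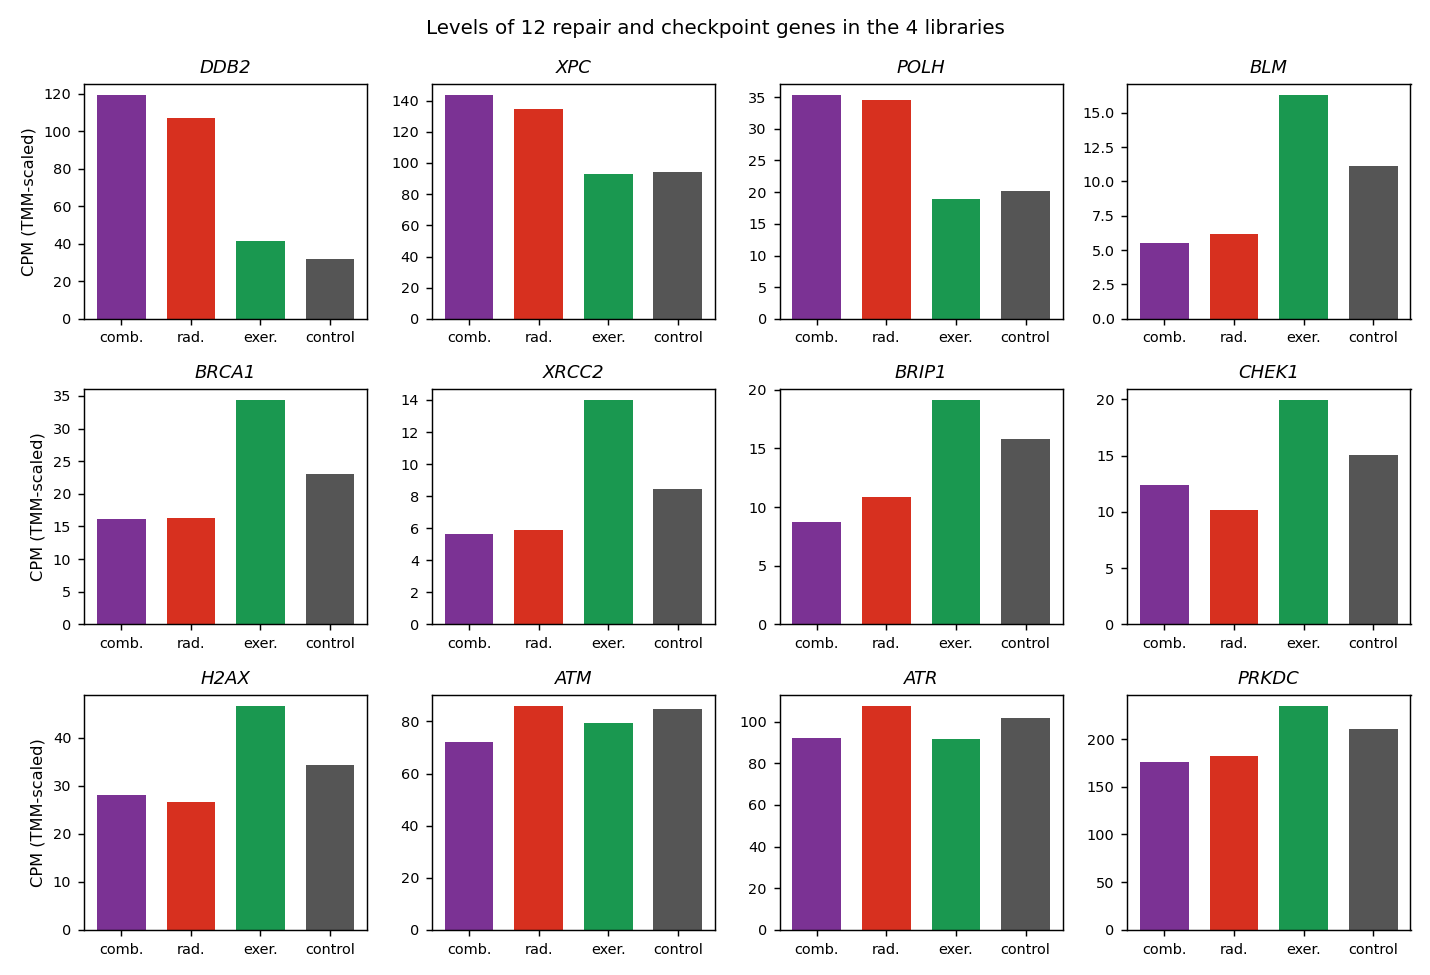
Level (CPM, TMM-scaled, linear axis) of 12 genes, DDB2, XPC, POLH, BLM, BRCA1, XRCC2, BRIP1, CHEK1, H2AX, ATM, ATR and PRKDC, as 1 bar per library in the order combination, radiation alone, exercise alone and control, with no error bars since each group had 1 library. DDB2 had 120 and 107 CPM in the irradiated libraries against 41.3 and 32.2 CPM in the unirradiated ones, and BLM had 5.53 and 6.15 CPM against 16.3 and 11.1 CPM.

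Among the genes that sense breaks and relay the signal, CHEK1 and H2AX passed and the apical kinases did not. CHEK1, the kinase that ATR activates at stalled forks, had 12.4 CPM in the combination, 10.2 CPM with radiation alone, 19.9 CPM with exercise alone and 15.0 CPM in control (-0.62 ± 0.14, SE, adjusted p = 0.0132, edgeR), the lowest of the 9. The CHEK1 call was lost with DESeq2 and when the exercise term was left out. H2AX, the histone variant phosphorylated beside breaks, had 28.2 CPM in the combination, 26.6 CPM with radiation alone, 46.6 CPM with exercise alone and 34.3 CPM in control (-0.55 ± 0.11, SE, adjusted p = 0.0101, edgeR). The whole H2AX span lies inside that of DPAGT1 in RefSeq, so the H2AX counts are uncertain.

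ATM, the kinase activated by double-strand breaks, had 72.2 CPM in the combination, 86.0 CPM with radiation alone, 79.4 CPM with exercise alone and 84.6 CPM in control. ATR, activated by single-stranded DNA, had 92.4 CPM in the combination, 108 CPM with radiation alone, 91.9 CPM with exercise alone and 102 CPM in control. In both kinases the irradiated and unirradiated libraries overlapped. The log2 ratio for radiation was -0.06 in ATM (95% interval -0.26 to 0.15, adjusted p = 0.789, edgeR) and 0.05 in ATR (-0.16 to 0.25, adjusted p = 0.829, edgeR). C11orf65 shares 41.5% of the ATM span. The others of this group, CHEK2, MDC1, RNF8, RNF168 and TP53BP1, were within 1.5-fold in every pair, and RNF8, a ligase that recruits repair factors, was highest in the fit at 0.07. CHEK2 has 6 named pseudogene copies that may share its reads.

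No end joining gene passed the radiation term. PRKDC, which encodes DNA-PKcs, had 176 CPM in the combination, 182 CPM with radiation alone, 235 CPM with exercise alone and 210 CPM in control. Both irradiated libraries were below both unirradiated ones, yet the ratio missed the threshold (-0.31, 95% interval -0.55 to -0.08, adjusted p = 0.101, edgeR). It was the lowest of the 5 genes. LIG4, the ligase that seals the joined ends, was the highest at 0.11 (95% interval -0.14 to 0.37). Between these, XRCC4 and the Ku subunits XRCC5 and XRCC6 were within 1.5-fold in every pair.

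Base excision and single-strand break repair showed small shifts that did not pass. All 8 genes had a log2 ratio below 0 for radiation, between -0.28 for UNG, which removes uracil, and -0.05 for OGG1, which removes oxidized guanine. Radiation alone was below control for all 8, with PARP1, the sensor of nicks, lowest at -0.38. The combination lay above radiation alone for 7 of the 8, with PARP1 highest at 0.25 and PARP2 the exception. Of mismatch repair, MSH6 had a ratio of -0.20 and PMS2 of 0.03, neither past the threshold, and PMS2 has 15 named pseudogene copies that may share its reads.

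In the simple ratios against control most of the 53 genes were again below 0, but few passed a fold threshold in either direction. With radiation alone over control, 1 of the 53 genes was at least 2-fold higher (DDB2, where 1.89% of all genes were) and 0 were at least 2-fold lower (0.897% of all genes). At 1.5-fold, 2 were higher, DDB2 and POLH, where 5.81% of all genes were, and 1 was lower, BLM, where 4.35% of all genes were. The median of the 53 was -0.12, against 0.00 over all genes, and 38 of 53 were below 0 (49.9% of all genes). In the combination over control, 1 was at least 2-fold higher (2.27% of all genes) and 1, BLM, was at least 2-fold lower (1.75% of all genes). The interval of BLM spans 2-fold, and with median-of-ratios scaling, with no minimum count or on FPKM with 0.1 added it was not called. At 1.5-fold, 3 were higher (6.14% of all genes), DDB2, POLH and XPC, and 4 were lower (6.52% of all genes), BLM, EXO1, BRIP1 and XRCC2. Here 39 of 53 were below 0, against 52.1% of all genes, with a median of -0.14 against -0.01.

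**Figure D3:**
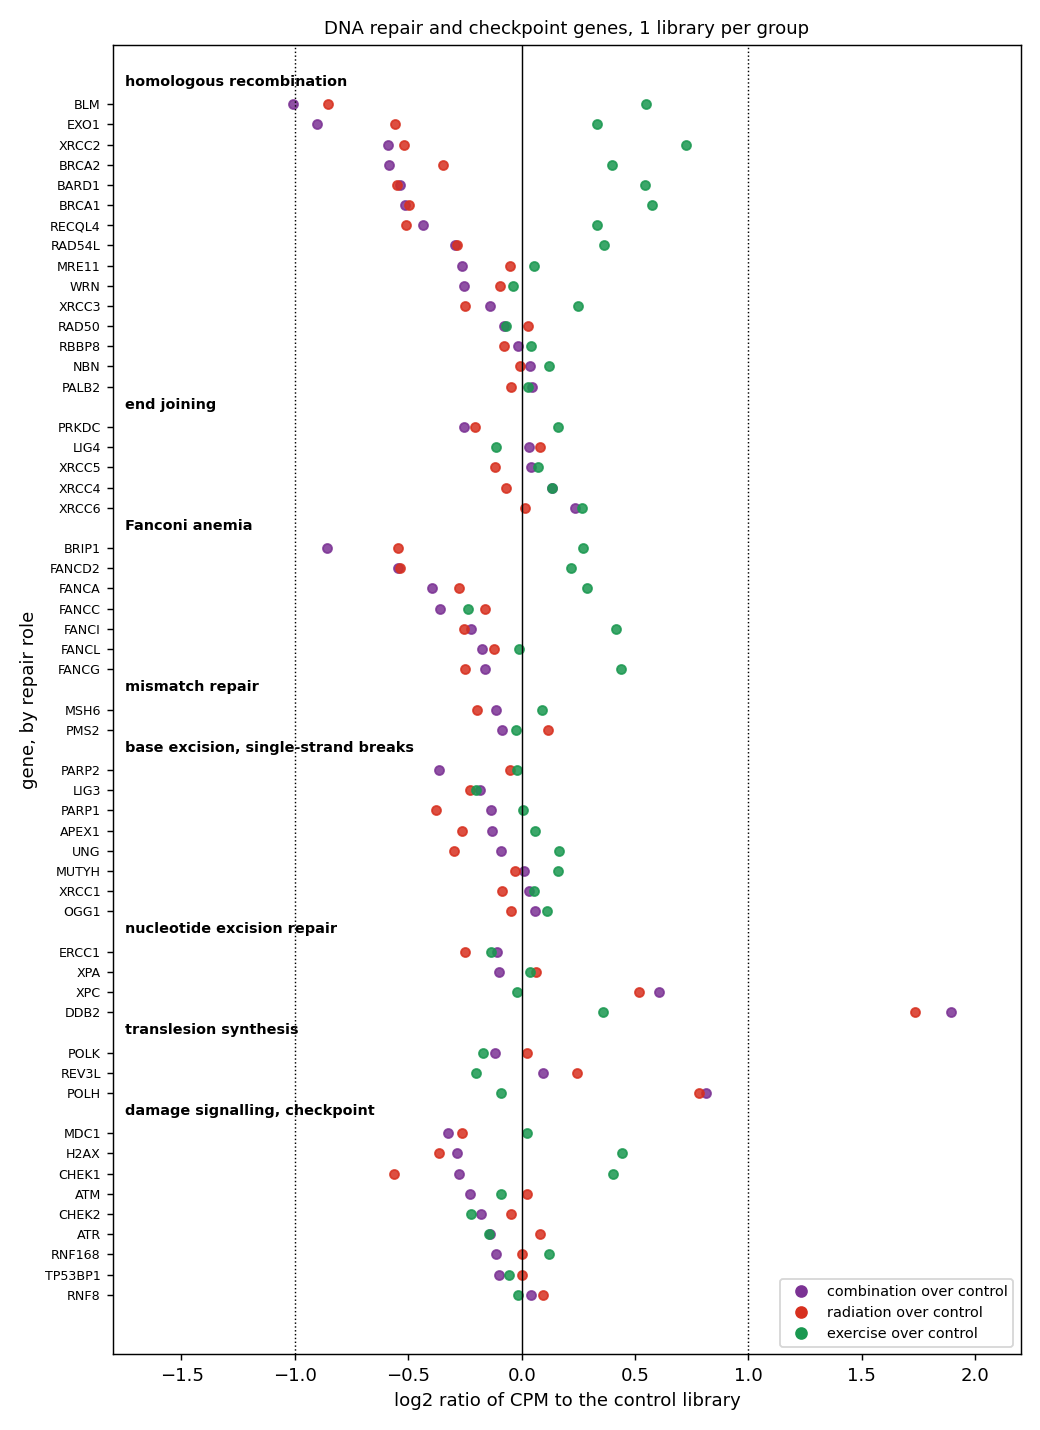
Log2 ratio over control (x axis) of each of the 53 genes in the combination, with radiation alone and with exercise alone, by role, with 1 point per library and dotted lines at 2-fold. DDB2 lay at 1.89 in the combination and 1.73 with radiation alone, BLM at -1.01 and -0.86, and the exercise ratios reached 0.72 in XRCC2.

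With exercise alone over control, 0 of the 53 genes passed 2-fold in either direction, where 0.83% of all genes were higher and 0.696% lower. At 1.5-fold, 1 was higher, XRCC2, where 3.85% of all genes were, and 0 were lower, where 3.21% of all genes were. Of the 53, 18 were below 0, against 49.6% of all genes. Among these 53 genes the direction was uneven by role. Of the 15 homologous recombination genes 13 were above 0, with a median of 0.33 against 0.00 over all genes, and of the 7 Fanconi genes 5 were above 0, with a median of 0.27. In translesion synthesis all 3 genes were below 0. The wider pathway list described below leaned less by role. There 17 of 29 other homologous recombination genes were above 0 (median 0.09) and 12 of 14 other Fanconi genes (median 0.06). Of 8 other translesion synthesis genes, 5 were above 0. BRCA1 was 1.49-fold (1.36 to 1.63) and BLM 1.46-fold (1.28 to 1.67) with exercise alone over control, next to the 1.65-fold of XRCC2.

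In the combination over radiation alone, the same treadmill contrast within irradiated tumors, 0 of the 53 genes were 2-fold higher or lower (0.418% and 0.861% of all genes), and 0 passed 1.5-fold either way (2.31% and 4.24% of all genes). Of the 53, 28 were below 0, against 49.8% of all genes. The range ran between -0.34 in EXO1 and 0.29 in CHEK1. Of the homologous recombination genes 6 of 15 were above 0, with a median of -0.02. XRCC2 was 0.953-fold and BRCA1 0.989-fold here, so the exercise ratios of these genes were near 1 in irradiated tumors and above 1 in unirradiated ones.

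**Figure D4:**
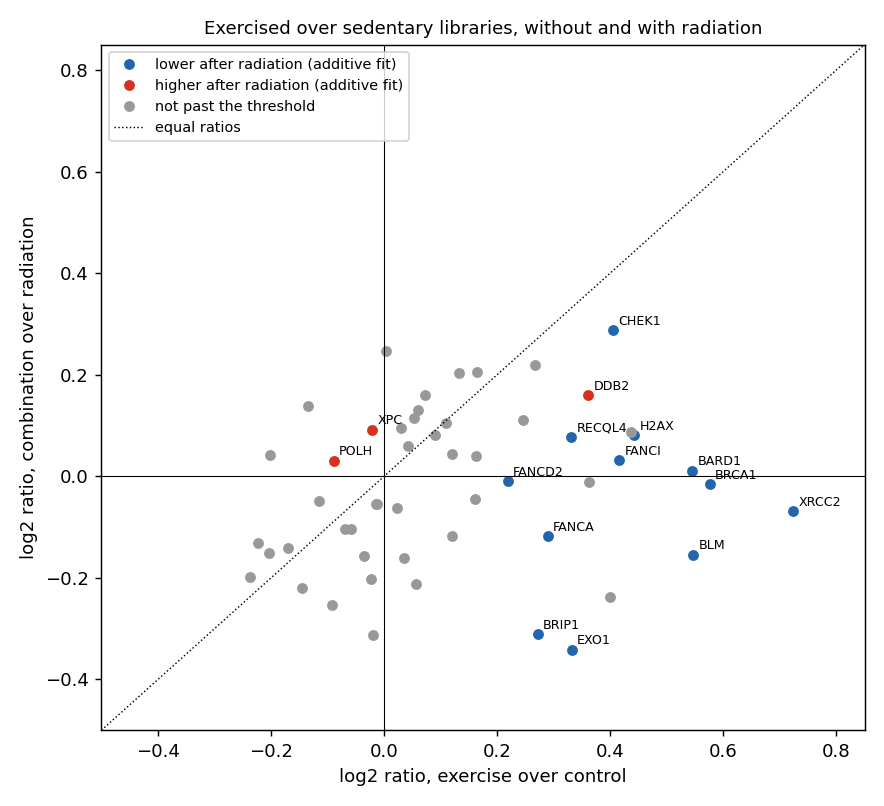
Log2 ratio of exercise alone over control (x axis) and of the combination over radiation alone (y axis) for the 53 genes, blue where lower and red where higher in the radiation fit, with a dotted line of equal ratios and no library shared between the axes. XRCC2, BRCA1 and BLM lie at 0.72, 0.58 and 0.55 on the x axis and at -0.07, -0.02 and -0.15 on the y axis.

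The departure from additive effects, the second of these log2 ratios minus the first, was below 0 for 36 of the 53 genes, against 51.8% of all genes. Its median was -0.27 for homologous recombination and -0.35 for the Fanconi genes, against -0.01 over all genes, and it ran between -0.79 in XRCC2 and 0.27 in ERCC1. With 1 library a group it has no test. In the additive fit 0 of the 53 genes passed for exercise (0.0825% of all genes did, 0.0567% higher and 0.0258% lower), 5 had an unadjusted p under 0.05 (9.43%, against 5.6% of all genes), and DESeq2 also called 0. The lowest adjusted p was that of DDB2 (adjusted p = 0.822, edgeR), which was 1.28-fold with exercise alone over control (1.19 to 1.39) and 1.12-fold in the combination over radiation alone (1.07 to 1.17).

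The widest separation was between the combination and exercise alone, the irradiated and unirradiated libraries of exercised mice. Here 6 of the 53 genes were at least 2-fold lower (3.06% of all genes) and 1 was at least 2-fold higher (2.92% of all genes). At 1.5-fold, 15 were lower (8.32% of all genes), 8 of homologous recombination, 5 of the Fanconi pathway, CHEK1 and H2AX, and 3 were higher (7.66% of all genes). The 6 past 2-fold were BLM at 0.340-fold, XRCC2 at 0.403-fold (0.337 to 0.477), EXO1 at 0.425-fold, BRIP1 at 0.458-fold, BRCA1 at 0.470-fold (0.423 to 0.521) and BARD1 at 0.472-fold. The 3 that were higher were DDB2 at 2.89-fold (2.72 to 3.07), POLH at 1.87-fold (1.70 to 2.06) and XPC at 1.55-fold. On FPKM with 0.1 added 0 genes were 2-fold lower here, but adding 0.1 pulls ratios of small FPKM values toward 1. In sedentary mice, radiation alone over control, the same 6 genes were between 0.553-fold in BLM and 0.708-fold in BRCA1.

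Most proliferation genes moved alongside the genes that were lower. MKI67, the Ki-67 antigen of cycling cells, had 42.7 CPM in the combination and 49.0 CPM with radiation alone, against 174 CPM with exercise alone and 104 CPM in control (-1.55 ± 0.17, SE, adjusted p = 0.000173, edgeR), and 19 of the 22 proliferation genes were called lower. All 22 were above 0 with exercise alone over control, with a median of 0.60. The 12 repair genes called lower summed to 181 CPM in the combination and 182 CPM with radiation alone, against 323 CPM with exercise alone and 243 CPM in control. Set against the proliferation sum they came to 35.6% and 37.6% in these irradiated libraries, against 33.0% and 35.8% in the unirradiated ones. That sum includes PCNA, which was not lower after radiation (0.18, adjusted p = 0.269, edgeR). PCNA had 82.6 CPM in the combination and 71.9 CPM with radiation alone, against 74.8 CPM with exercise alone and 61.6 CPM in control. The shares depend in part on such genes. These 12 genes were chosen by the fit on the same libraries, so the shares are a description. Of the 12 p53-induced genes, 11 were called higher. Whether the repair genes changed apart from these lists was not tested.

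A wider list of 127 other genes of the same pathways, all of them tested, gave 14 genes called for radiation (11%, against 9.3% of all genes). Of these 13 were lower (10.2%, against 3.75% of all genes) and 1 was higher (0.787%, against 5.55% of all genes). The higher gene was PPM1D, the p53-induced phosphatase that switches off the damage signal, with 30.3 CPM in the combination and 28.3 CPM with radiation alone, against 17.9 CPM with exercise alone and 15.3 CPM in control (0.82, adjusted p = 0.000876, edgeR). It moved in the direction of DDB2 and POLH. NEIL3, a glycosylase of S phase, had 2.72 CPM in the combination and 3.74 CPM with radiation alone, against 10.4 CPM with exercise alone and 7.14 CPM in control (-1.42, adjusted p = 0.00268, edgeR). CLSPN, the adaptor through which ATR activates CHEK1, had 3.33 CPM in the combination and 3.62 CPM with radiation alone, against 9.75 CPM with exercise alone and 6.55 CPM in control. Both ordered the libraries as BLM did. With radiation alone over control CDC25C, a phosphatase of mitotic entry, was the 1 gene of the 127 past 2-fold (0.355-fold, 0.235 to 0.515). Of all genes 0.897% were at least 2-fold lower there and 1.89% at least 2-fold higher. In the combination over control 3 were at least 2-fold lower, where 1.75% of all genes were. These were NEIL3 at 0.382-fold (0.296 to 0.486), FANCB, a Fanconi core subunit, at 0.425-fold (0.344 to 0.520) and RAD51AP1, which aids strand exchange, at 0.489-fold (0.394 to 0.601). In the combination over exercise alone 5 were at least 2-fold lower, where 3.06% of all genes were. These were NEIL3 at 0.263-fold, RAD51AP1 at 0.332-fold, CLSPN at 0.342-fold, FANCB at 0.383-fold and CDC25C at 0.405-fold. No gene of the 127 passed 2-fold with exercise alone over control or in the combination over radiation alone. Of all genes 0.83% were higher and 0.696% lower in the first of these comparisons, and 0.418% and 0.861% in the second.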

How the data were processed

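RNA from A549 xenografts in 4 groups, 1 library each, was measured by stranded mRNA sequencing. The authors trimmed reads with cutadapt, aligned them to GRCh38 with Bowtie2 2.3.4.1 and counted them with featureCounts 1.6.0. They deposited raw counts and FPKM per gene. How strand and mouse reads were handled is not given in the sources used here. For 44 of the 53 genes the length behind the deposited FPKM was within 2% of the whole gene span, so levels were not compared between genes. Another gene overlapped 37 spans, 9 of them over more than 20%. Besides BRCA1, FANCD2, ATM and H2AX, these were MDC1 (57.9%), OGG1 (57.6%), XPA (45.1%), FANCC (24.7%) and XRCC3 (22.0%), whose counts are uncertain too. The length behind the MDC1 FPKM was 805% of its span.

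Counts were scaled by TMM (edgeR 4.0.16, R 4.3.3). Genes averaging 20 or more reads per library were kept. Ratios used a prior of 0.5 counts, and a ratio of 2-fold was called, since 1 library a group allows no test. The additive fit used the quasi-likelihood F test with Benjamini-Hochberg adjustment over all 19393 genes (common dispersion 0.00922). SE is the log2 ratio divided by the square root of F. A count of 3 reads corresponds to 0.0840 to 0.0916 CPM, and intervals cover counting error only. All tests were two-sided. Genes were given in full where any pair reached 1.5-fold or the radiation term passed, with ATM, ATR, PRKDC and H2AX always given. The other genes appear by role with the highest and lowest named, and of the 127 wider pathway genes those past 2-fold. RAD50, FANCL, XPA, REV3L, PPM1D and CLSPN, among others given singly, were chosen after their values were seen. The members and lists were chosen with earlier results of these data known. Alternatives changed the scaling, prior, count filter, unit, threshold, tool (DESeq2 1.42.0) and covariate.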

Additional observations from a re-analysis of the deposited data

Results flagged for a closer look

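In 2 of the 53 genes (3.77%, against 9.16% of all genes tested) the ratio of exercised over sedentary tumors had opposite signs without and with radiation, with both counting intervals apart from 1. For BRIP1 the log2 ratio was 0.27 with exercise alone over control and -0.31 in the combination over radiation alone, a difference of -0.58. ERCC1 had -0.13 with exercise alone over control and 0.14 in the combination over radiation alone, a difference of 0.27. With 1 library a group these differences were not tested.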

How the results depend on the processing

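No value of the 53 genes turned its direction under any alternative where it was called. At 1.5-fold in place of 2-fold, radiation alone over control gave 2 genes higher and 1 lower, exercise alone over control 1 higher, the combination over control 3 higher and 4 lower, and the combination over exercise alone 3 higher and 15 lower. BLM was no longer 2-fold lower in the combination over control (0 genes in place of 1) with median-of-ratios scaling or with no minimum count. The same held on FPKM with 0.1 added, where the combination over exercise alone had 0 genes 2-fold lower in place of 6. The length behind the BLM FPKM was 98972 bases, and adding 0.1 pulls ratios of small FPKM values toward 1. The part of this in the lost calls was not tested. For the radiation term, DESeq2 called 7 genes lower in place of 12 (BARD1, CHEK1, EXO1, FANCA and FANCI were lost) and total-count scaling called 19, with BRCA2, FANCG, MDC1, PARP1, PRKDC, UNG and XRCC3 added, while the 3 higher genes stayed called in both. Over all genes the fit called 1803, of which 59.7% were higher, against 958 (66.9% higher) with DESeq2, 2474 (43.0% higher) with total-count scaling and 2650 (58.1% higher) with no minimum count. Without the exercise term CHEK1 and FANCI were not called, and with no minimum count BRCA2 was. Leaving out 1 library removes its group, and the additive fit then has no residual degree of freedom, so no such values are given. No paired analysis was possible because each group has 1 library. Intervals cover counting error, and the spread between tumors of a group is unknown.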
